A study of Mus musculus with 39 samples.

Results

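The transcripts described here are 37 mouse genes of hypoxia and glycolysis, found in the expression table by matching their symbols without regard to case. The list was chosen with earlier results of these data known. All 37 were among the 20520 genes of the table. They fall into 20 genes of glucose uptake, glycolysis and lactate export, called the glycolysis members, and 17 other genes known as targets of the hypoxia-inducible factors (HIF), called the other HIF targets. Of the 37, 36 passed the filter on low values and were tested, and Eno1 did not.

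Cells that lack oxygen stabilise the HIF alpha subunits, which are otherwise hydroxylated by the prolyl hydroxylases Egln1 to Egln3 and then destroyed through the von Hippel-Lindau protein. Stabilised HIF binds a short DNA element near its target genes and raises glucose transporters, most glycolytic enzymes, the lactate exporter Slc16a3 and genes for pH control, collagen hydroxylation, mitophagy and HIF feedback. In breast tumors carbonic anhydrase 9 (Car9) is a widely used marker of hypoxic tissue, whereas many glycolytic enzymes are abundant in every cell and are also driven by growth factor signalling and MYC.

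The samples were PB2 mouse breast tumors grown after implantation. They carried either FL-HER2, the full-length receptor tyrosine kinase, or p95HER2, a truncated HER2 without most of its outer part, and were collected at day 10 or day 22. At day 10 each construct had 10 libraries, and at day 22 FL-HER2 had 9 and p95HER2 had 10. All groups share the PB2 origin, and the sources used here give no tumor without a HER2 construct, no host strain or age, and no word on clones or the promoter of the constructs. Each library's title names its own tumor number, so the libraries are labelled as separate tumors. The sources do not say whether these tumors grew in separate animals, so p-values here speak only for the spread among these samples. Of the FL-HER2 day 10 libraries, 8 of 10 carry a 5-digit number in their column names where all others carry 3 digits (the title of 1 of the 8 gives 4 digits), and whether these are pools of tumors is not stated.

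Poly(A) RNA was sequenced to between 21772259 and 44427621 reads per library. Epithelial markers were present throughout, with Epcam medians of 16862 to 19629 normalized read counts over the 4 groups, but 5 of 8 epithelial markers were called lower with time in each construct (medians -0.98 in FL-HER2 and -0.78 in p95HER2, where 1 was called higher). Skeletal muscle genes took a median of 1.75% of reads in FL-HER2 at day 10 (range 0.0502% to 3.9%), 0.231% in FL-HER2 at day 22, 0.0245% in p95HER2 at day 10 and 0.239% in p95HER2 at day 22. Skin genes set 11 libraries apart, 5 of them in p95HER2 at day 10. Fibroblast genes fell from a median of 2.02% of reads to 0.422% in FL-HER2, with 14 of 14 markers called lower, and from 0.933% to 0.347% in p95HER2, with 13 of 14 called lower. In such bulk tissue fewer cells of a type and less RNA per cell cannot be told apart.

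Levels are normalized read counts, that is reads divided by the authors' factor for each library. Changes are differences of mean log2 values ± SE, from a limma fit, and a gene counts as called where its p, adjusted by Benjamini-Hochberg over the 13650 genes tested, is under 0.05. Of the 5 comparisons, 3 use the FL-HER2 day 10 libraries, so they share samples and their values are given side by side without any measure of likeness.

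Between day 10 and day 22 most of the genes fell in FL-HER2 tumors, and fewer were called in p95HER2 tumors. In FL-HER2, 12 of 19 tested glycolysis members and 13 of 17 other HIF targets were called lower, 25 in all. Over all genes tested 30.6% were called lower. There 2 members of each class were called higher, against 20.7% of all genes. In p95HER2, 5 glycolysis members and 4 other HIF targets were called lower, where the share over all genes was 18.6%, and 3 and 2 were called higher, where it was 16.6%. Of all genes called, 40.4% were higher in FL-HER2 and 47.1% in p95HER2, and on log2(CPM + 1) values these shares were 62.4% and 64.3%. The median log2 change was -0.27 for glycolysis members and -0.37 for other HIF targets in FL-HER2, beside -0.03 for all genes. It was -0.09 for both classes in p95HER2, beside 0.00 for all genes. Thus in FL-HER2 the share called lower lay above the background in both classes, and in p95HER2 it was closer to it.

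**Figure D1:**
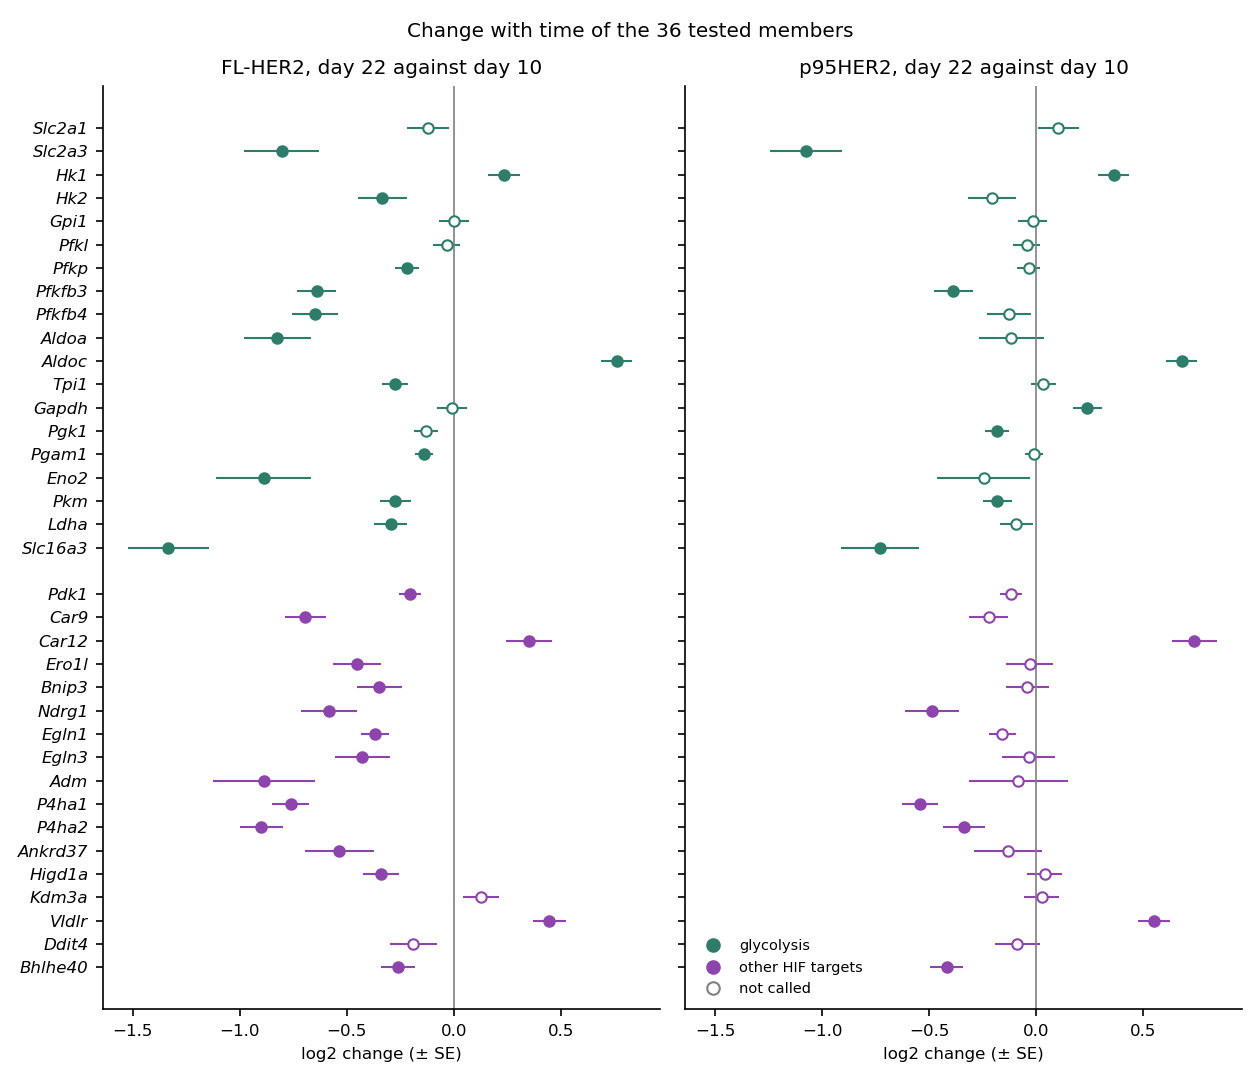
Log2 change ± SE (x axis) of each tested member (y axis) between day 10 and day 22 in FL-HER2 (left) and p95HER2 tumors (right), with glycolysis members in green and other HIF targets in purple. Filled points passed the test; most points in the left panel lie below 0, down to -1.33 for Slc16a3, while Aldoc, Hk1, Car12 and Vldlr lie above 0 in both panels.

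These counts depended on which libraries represent FL-HER2 at day 10. Among muscle-limited libraries, those with 0.1% to 1.3% muscle reads (3 of the FL-HER2 day 10 group), 12 members were called lower in FL-HER2. With a term for the length of the library number, which leaves the day 10 level to 2 libraries, 10 were. Calls over all genes dropped too. They were 3506 among muscle-limited libraries (32.6% of them higher) and 2953 with the term (35.2% higher), beside 7011 in the main fit (40.4% higher). With quantile normalization the glycolysis median in FL-HER2 was -0.06, while the median of the other HIF targets stayed at -0.28.

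Of the 36 tested genes, 8 were called lower with time in both constructs (Slc2a3, Pfkfb3, Pkm, Slc16a3, Ndrg1, P4ha1, P4ha2 and Bhlhe40) and 4 were called higher in both (Hk1, Aldoc, Car12 and Vldlr). A further 17 were called lower in FL-HER2 with no call in p95HER2. Pgk1, which makes the first ATP of glycolysis, was called lower in p95HER2 with no call in FL-HER2, and Gapdh was called higher there. None was called in opposite directions. Over all genes 30.6% were called lower in FL-HER2 and 18.6% in p95HER2. How many of all genes show each of these joint patterns was not counted, so the counts are not read as particular to the members.

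Among the glucose transporters, Slc2a3 (GLUT3), the high-affinity form, fell in both constructs. It had a lowest, median and highest level of 52.04, 92.06 and 141.2 normalized read counts in FL-HER2 at day 10 and of 28.86, 45.14 and 82.28 at day 22. In p95HER2 it had 43.28, 90.86 and 107.2 at day 10 and 36.04, 39.92 and 49.13 at day 22. Only a few libraries of the later groups reached into the earlier range, 3 in each construct. In p95HER2 that overlap rested on day 10 replicate 8 (43.28), as the next day 10 value was 80.95. The log2 change was -0.80 ± 0.17 (adjusted p = 2.04e-04) for FL-HER2 and -1.07 ± 0.17 (adjusted p = 2.93e-06) for p95HER2. Slc2a1 (GLUT1), the main transporter of tumors, was not called with time in either construct, with changes of -0.12 ± 0.10 and 0.10 ± 0.10.

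Hexokinases trap glucose in the cell. Hk1 rose from a median of 9064 (range 8261 to 11104) to 10075 (9319 to 15073) in FL-HER2 and from 8807 (7962 to 11109) to 11583 (9842 to 12954) in p95HER2. The ranges overlapped, and the log2 changes were 0.23 ± 0.07 (adjusted p = 0.00799) and 0.36 ± 0.07 (adjusted p = 1.02e-04). Hk2, the inducible hexokinase and a textbook HIF target, went the other way, with -0.33 ± 0.12 in FL-HER2 (adjusted p = 0.0149) and an uncalled -0.21 ± 0.11 in p95HER2. The Hk2 call ended on log2(CPM + 1) values, by voom on the reads and after adjustment for each library's muscle score. Among muscle-limited libraries and with the term for number length it ended too, as did the FL-HER2 call of Hk1.

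Pfkfb3 and Pfkfb4 make fructose 2,6-bisphosphate, the activator of phosphofructokinase. Pfkfb3 had a lowest, median and highest level of 1977, 2282 and 3424 in FL-HER2 at day 10 and of 1160, 1560 and 1925 at day 22. Those groups did not overlap, and the log2 change was -0.64 ± 0.09 (adjusted p = 3.27e-07). In p95HER2 Pfkfb3 went from 1682, 1863 and 2713 to 1319, 1460 and 1685, with 1 day 22 library inside the day 10 range (-0.39 ± 0.09, adjusted p = 7.09e-04). Pfkfb4 had 239.9, 311.1 and 415.4 in FL-HER2 at day 10 and 177.8, 205.6 and 276 at day 22, and 1 day 22 library lay in the day 10 range. Its log2 change was -0.65 ± 0.11 in FL-HER2 (adjusted p = 3.03e-06) and an uncalled -0.13 ± 0.10 in p95HER2. Of the phosphofructokinases, Pfkl was called in neither construct, and Pfkp was called in FL-HER2 at -0.22 ± 0.06.

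The 2 aldolases, which split fructose 1,6-bisphosphate, moved in opposite directions in FL-HER2. Aldoc had a lowest, median and highest level of 8287, 10374 and 11876 in FL-HER2 at day 10 and of 14781, 16657 and 21947 at day 22. p95HER2 tumors had 8964, 10871 and 11693 at day 10 and 13265, 17442 and 18615 at day 22. All day 22 libraries were above all day 10 libraries in both constructs. The log2 change was 0.76 ± 0.07 (adjusted p = 4.79e-11), or 1.69-fold, for FL-HER2 and 0.68 ± 0.07 (adjusted p = 5.94e-10) for p95HER2. Aldoa, the isoform of muscle and most tumors, had 42008, 90313 and 162073 in FL-HER2 at day 10 and 41639, 51999 and 60913 at day 22 (-0.82 ± 0.16, adjusted p = 3.26e-05). Its day 10 values were the widest of these, and 8 of 9 day 22 libraries lay inside their range. That overlap rested on day 10 replicate 10 (42008), as all other day 10 libraries were at 68491 or more. In p95HER2 the Aldoa change was an uncalled -0.12 ± 0.15.

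Of the enzymes after aldolase, 5 were called lower in FL-HER2. Tpi1 (-0.28), Pgam1 (-0.14), Pkm (-0.27) and Ldha (-0.30) were called, the last by 1.23-fold, and the neuronal enolase Eno2 fell by 0.89 on the log2 scale at a median of 50.29 normalized read counts falling to 26.64. None of these 5 calls held under quantile normalization, where Pkm, pyruvate kinase, turned in direction to 0.20. Those of Tpi1, Pgam1, Pkm and Ldha also ended among muscle-limited libraries and with the term for number length. For Pgam1 the call ended on log2(CPM + 1) values and by voom too. Pkm also fell in p95HER2 (-0.18 ± 0.07, adjusted p = 0.0381), a call that ended without any 1 of 10 libraries (day 10 replicates 1, 5, 6 and 10 and day 22 replicates 1 to 6). Pgk1 was called in p95HER2 at -0.18 ± 0.06 and Gapdh at 0.24 ± 0.07.

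Slc16a3 (MCT4), which exports lactate, had the largest estimated fall of the 36 genes in FL-HER2. It had a lowest, median and highest level of 596.3, 1595 and 3150 in FL-HER2 at day 10 and of 405.1, 666 and 729.7 at day 22. In p95HER2 it had 656.5, 939.2 and 1285 at day 10 and 442, 557.9 and 781.3 at day 22. The groups overlapped in both constructs. The log2 change was -1.33 ± 0.19 (adjusted p = 2.25e-07), or 2.52-fold, for FL-HER2 and -0.73 ± 0.18 (adjusted p = 0.00163) for p95HER2.

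Collagen prolyl hydroxylase subunits P4ha1 and P4ha2, which need oxygen to stabilise collagen helices, fell in both constructs. P4ha1 lies on chromosome 10 (59323296 to 59373304, GRCm38) and had 7005, 8121 and 10332 normalized read counts (lowest, median and highest) in FL-HER2 at day 10 and 4061, 5009 and 5794 at day 22. p95HER2 tumors had 8028, 8846 and 10500 at day 10 and 4643, 6709 and 8189 at day 22. The FL-HER2 groups did not overlap, and 1 p95HER2 day 22 library reached the day 10 range. The log2 change was -0.76 ± 0.09 (adjusted p = 2.08e-09) for FL-HER2 and -0.54 ± 0.08 (adjusted p = 1.93e-06) for p95HER2. P4ha2 had 2951, 3650 and 5566 in FL-HER2 at day 10 and 1686, 2048 and 2470 at day 22, with no overlap (-0.90 ± 0.10, adjusted p = 1.41e-09). In p95HER2 it had 1986, 2875 and 3799 at day 10 and 1953, 2284 and 2730 at day 22, with 9 of 10 later libraries inside the earlier range (-0.34 ± 0.10, adjusted p = 0.00582). Fibroblast markers such as Col1a1 fell over the same interval, from a median of 207667 to 40786 in FL-HER2 and from 117565 to 31325 in p95HER2, and their part in the P4ha1 and P4ha2 result was not tested.

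The carbonic anhydrases went apart. Car9, on chromosome 4 (43506966 to 43513729), had 3475, 3981 and 4654 in FL-HER2 at day 10 and 1872, 2475 and 3183 at day 22, again without overlap. p95HER2 tumors had 2629, 4100 and 4896 at day 10 and 2781, 3457 and 4567 at day 22, so that all 10 later libraries lay in the earlier range. The low end of that range was day 10 replicate 5 alone. The next day 10 value was 3695, above the day 22 median. The log2 change was -0.69 ± 0.095 (adjusted p = 1.24e-07) for FL-HER2 and an uncalled -0.22 ± 0.09 (adjusted p = 0.059) for p95HER2. Car12, a second membrane carbonic anhydrase that also responds to estrogen receptor, had 3722, 5086 and 6773 in p95HER2 at day 10 and 7663, 8433 and 9327 at day 22. Every later library was higher (0.74 ± 0.10, adjusted p = 3.57e-07). In FL-HER2 its ranges were 4089 to 8767 and 5161 to 8668 and overlapped widely (0.35 ± 0.11, adjusted p = 0.00604), and that call ended after adjustment for each library's muscle score (0.21, adjusted p = 0.0645).

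**Figure D2:**
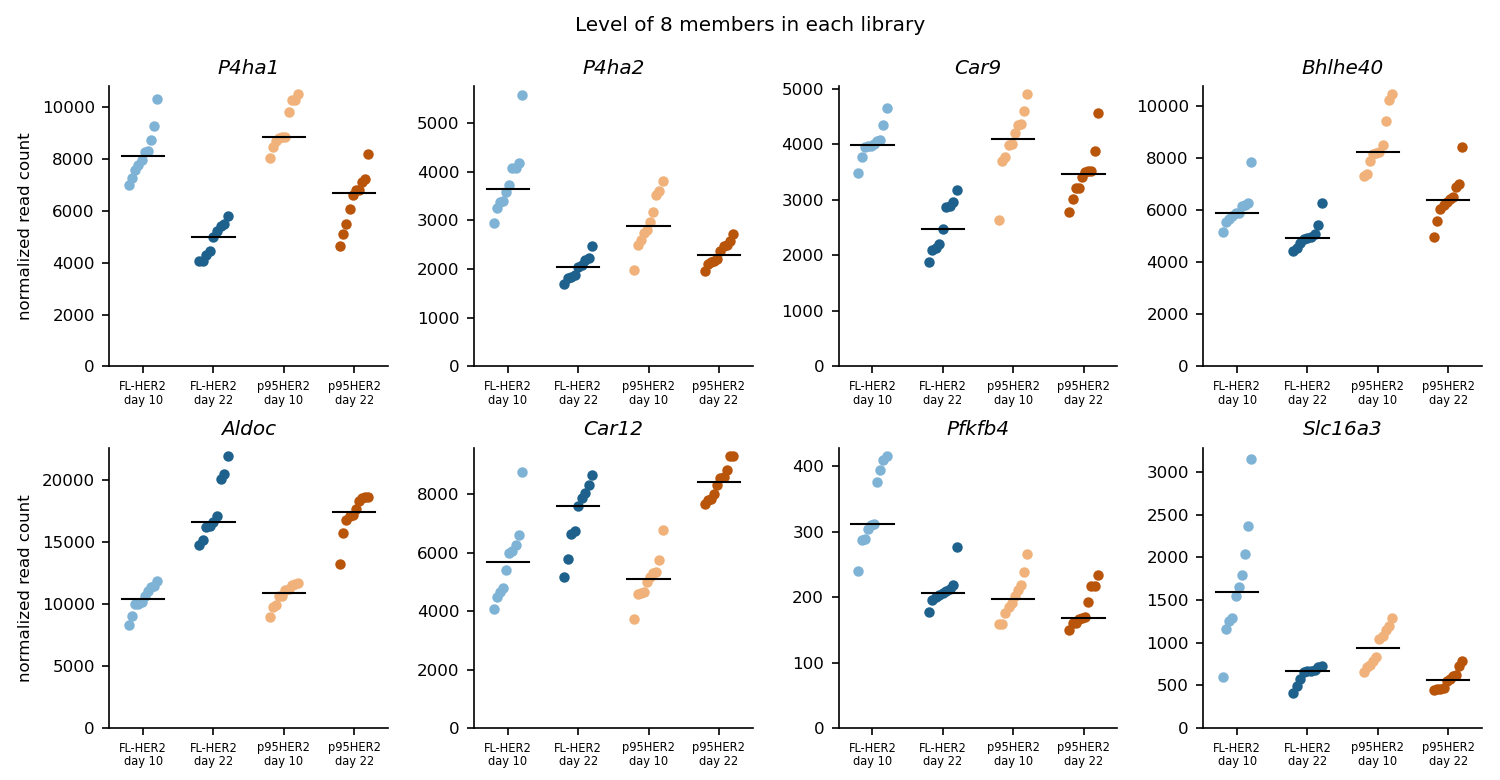
Normalized read count (y axis, from 0) of 8 members in every library (points, sorted within a group), with the group median as a line. P4ha1, P4ha2 and Car9 do not overlap between the FL-HER2 days, Aldoc separates the days in both constructs, Car12 separates them in p95HER2, and Bhlhe40 has its highest median, 8223, in p95HER2 at day 10.

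The HIF prolyl hydroxylases brake the pathway, and Egln1 and Egln3 are themselves HIF targets. Egln1 (PHD2) had 5501, 6130 and 7889 in FL-HER2 at day 10 and 3962, 5095 and 5454 at day 22, without overlap (-0.37 ± 0.07, adjusted p = 1.44e-05). Egln3 (PHD3) fell there too, by 0.43 on the log2 scale. Neither was called in p95HER2, where Egln1 changed by -0.16 ± 0.06 (adjusted p = 0.0527).

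Other members fell in FL-HER2 without separating. Ero1l, an oxidase of disulfide formation, fell by 0.45, the mitophagy receptor Bnip3 by 0.35, Ankrd37 by 0.53, the mitochondrial protein Higd1a by 0.34 and Pdk1, which keeps pyruvate out of the mitochondrion, by 0.20 on the log2 scale. Adm, the vasodilator peptide adrenomedullin, fell by 0.89 from a median of 130.1 to 81.01 normalized read counts. None of these 6 was called in p95HER2. Ndrg1, a stress-response gene often used as a hypoxia marker, fell in both, from a median of 8935 (range 7549 to 12254) to 5807 (4094 to 10084) in FL-HER2 and from 10827 (7261 to 15604) to 7717 (6140 to 9227) in p95HER2. Its ranges overlapped, with log2 changes of -0.58 ± 0.13 (adjusted p = 2.78e-04) and -0.49 ± 0.13 (adjusted p = 0.00233).

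Bhlhe40 (DEC1), a repressor of transcription, fell in both constructs. It had 5178, 5905 and 7853 in FL-HER2 at day 10 and 4433, 4946 and 6299 at day 22 (-0.26 ± 0.08, adjusted p = 0.00521). The p95HER2 libraries had 7333, 8223 and 10475 and then 4992, 6384 and 8423 (-0.42 ± 0.08, adjusted p = 2.89e-05). A small number of later libraries, 2 in FL-HER2 and 1 in p95HER2, lay in the earlier range.

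Vldlr, a lipoprotein receptor, was the other riser among the HIF targets. It had 2548, 3040 and 3606 in FL-HER2 at day 10 and 3321, 4226 and 5131 at day 22, and 2597, 3013 and 3441 in p95HER2 at day 10 and 3250, 4504 and 5440 at day 22. Here too 2 later libraries in FL-HER2 and 1 in p95HER2 lay in the earlier range. The log2 change was 0.45 ± 0.08 (adjusted p = 6.69e-06) and 0.55 ± 0.07 (adjusted p = 1.52e-07). Gpi1 and Ddit4 were called in none of the 5 comparisons. Gpi1, glucose phosphate isomerase, had group medians of 14181 to 15355, and Ddit4 (REDD1), an inhibitor of mTORC1, of 12030 to 14950 normalized read counts.

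Promoter letters were read for the same genes. Many of these genes were listed because they are known HIF targets, so a high motif share is partly set by the list. It tells nothing about the changes with time. The core of the hypoxia response element was searched as ACGTG and GCGTG on both strands in the 250 bases before the transcript start, in RefSeq promoters of GRCm38.p6, using the first start listed for each gene. A total of 34 of the 37 genes matched an entry (not Slc2a3, Ndrg1 or Bhlhe40). Either motif was present in 26 of 34 (76.5%), in 13 of 19 glycolysis members (68.4%) and in 13 of 15 other HIF targets (86.7%). The share was 55.8% over 10306 promoters of genes tested here and 38.6% over all 27025 promoters of the table. ACGTG alone was present in 16 of 34 (47.1%), beside 21.4% and 16.6%. The median GC content was 62.8% for the members, 60% for the tested genes and 52% for all, and its part in these shares was not tested. ACGTG lies within CACGTG, the E-box that MYC and Bhlhe40 bind, at 2 places in Ldha and 1 in Bnip3, where both strands match. A match describes letters only and shows no binding.

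The promoter of P4ha1 (chr10:59323046-59323295, plus strand) is shown as one that fell in both constructs and holds 1 ACGTG and 2 GCGTG, and those of Car12 (chr9:66713436-66713685, plus strand) and Vldlr (chr19:27216234-27216483, plus strand) as risers without either motif. Capitals mark the matches, with CACGT and CACGC as their reverse complements.
P4ha1: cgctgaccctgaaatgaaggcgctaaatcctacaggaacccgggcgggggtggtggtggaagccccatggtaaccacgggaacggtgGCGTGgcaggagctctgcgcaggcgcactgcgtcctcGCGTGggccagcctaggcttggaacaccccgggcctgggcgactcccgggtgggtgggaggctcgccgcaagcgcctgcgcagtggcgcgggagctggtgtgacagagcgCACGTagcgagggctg
Car12: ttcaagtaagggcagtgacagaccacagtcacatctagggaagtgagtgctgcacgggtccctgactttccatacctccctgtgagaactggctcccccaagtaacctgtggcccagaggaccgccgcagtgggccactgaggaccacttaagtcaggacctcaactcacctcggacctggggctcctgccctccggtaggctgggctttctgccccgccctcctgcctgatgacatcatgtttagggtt
Vldlr: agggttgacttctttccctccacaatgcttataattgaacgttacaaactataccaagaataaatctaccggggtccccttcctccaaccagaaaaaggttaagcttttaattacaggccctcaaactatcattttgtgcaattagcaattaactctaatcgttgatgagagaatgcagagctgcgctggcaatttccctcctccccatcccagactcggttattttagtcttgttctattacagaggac

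For 4 genes that fell and for Aldoc, which rose, the 30 bases around the match nearest the start are given. They are Car9 (chr4:43506996-43507025, plus), P4ha2 (chr11:54100843-54100872, plus), Pfkfb3 (chr2:11553972-11554001, minus), Slc16a3 (chr11:120949037-120949066, plus) and Aldoc (chr11:78323011-78323040, plus). The start is the first one RefSeq lists, and GENCODE M21 places all 30 bases of the Car9, Pfkfb3 and Aldoc stretches and 14 of those of Slc16a3 within exons, and none of P4ha2.
Car9: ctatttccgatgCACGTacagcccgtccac
P4ha2: catACGTGcagcGCGTGgcggctcgggcct
Pfkfb3: ctccgcgccgtgACGTGccaagctgtgacc
Slc16a3: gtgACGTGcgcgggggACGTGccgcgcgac
Aldoc: ccacctctgaggGCGTGgccttaccctaga

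Of the 4 genes called higher with time in both constructs, Hk1, Car12 and Vldlr held neither motif in this window and Aldoc held 1 GCGTG. Of the 8 called lower in both, 5 had an entry, and Pfkfb3, Slc16a3, P4ha1 and P4ha2 held a match while Pkm did not. Over promoters of all genes tested 55.8% held either motif. Of those called lower in FL-HER2 only, Aldoa, Tpi1 and Eno2 held neither motif and the rest held a match. Gapdh, called higher in p95HER2, held a match, as did Pgk1, called lower there. Of those called with time in neither construct, Slc2a1, Pfkl, Kdm3a and Ddit4 held a match and Gpi1 did not. No test was made of these differences.

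At day 10 p95HER2 tumors differed from FL-HER2 tumors in 12 members, of which 9 were lower. There 6 of 19 glycolysis members and 3 of 17 other HIF targets were called lower, where 26.1% of all genes were. Called higher were 1 glycolysis member and 2 other HIF targets, where 15.2% of all genes were. Over all 36 these shares are near the background or below it. Of all genes called, 36.7% were higher, and 62.9% under quantile normalization. The median log2 difference was -0.07 for glycolysis members and -0.05 for other HIF targets, beside -0.04 for all genes, and it was 0.05 for glycolysis members under quantile normalization.

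Pfkfb4 had the smallest p among glycolysis members, with 159.5, 196.9 and 265.9 (lowest, median and highest) in p95HER2 beside 239.9, 311.1 and 415.4 in FL-HER2. Only 1 p95HER2 library reached the FL-HER2 range (-0.73 ± 0.10, adjusted p = 7.01e-07). Slc16a3 was lower by 0.74 (± 0.18, adjusted p = 0.00131) and Aldoa by 0.67 (± 0.15, adjusted p = 5.55e-04), with p95HER2 levels of 656.5, 939.2 and 1285 for Slc16a3 and 42248, 52372 and 81792 for Aldoa. For both genes all 10 p95HER2 libraries lay inside the wide FL-HER2 range. For Aldoa the low end of that range was FL-HER2 replicate 10 alone (42008), with all others at 68491 or more. Tpi1, triose phosphate isomerase, differed by -0.24 ± 0.06 (adjusted p = 0.00113), with levels of 27736, 31551 and 42422 in FL-HER2 and 25176, 28085 and 30355 in p95HER2. Those ranges overlapped in 6 libraries. Pfkfb3 differed by -0.30 ± 0.09 (adjusted p = 0.00751). Gapdh differed by -0.22 ± 0.07, and by 0.05 under quantile normalization, and Pfkl, the liver-type phosphofructokinase, was higher at 0.16 ± 0.06, a call that ended without FL-HER2 replicate 5, 7 or 9 or p95HER2 replicate 5.

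Among the other HIF targets the smallest p was that of Bhlhe40, on chromosome 6 (108660629 to 108666925), which had 5178, 5905 and 7853 in FL-HER2 and 7333, 8223 and 10475 in p95HER2 at day 10. Only 2 p95HER2 libraries fell inside the FL-HER2 range (0.50 ± 0.08, or 1.42-fold, adjusted p = 2.25e-06). That overlap rested on FL-HER2 replicate 4 (7853), as the next FL-HER2 value was 6281. Higd1a differed by -0.38 ± 0.08 (adjusted p = 3.39e-04), with 2630, 3100 and 4212 in FL-HER2 and 1676, 2506 and 2993 in p95HER2, and 4 libraries of p95HER2 in the FL-HER2 range. P4ha2 was lower by 0.37 (± 0.10, adjusted p = 0.00254) and Egln1 by 0.17 (± 0.06, adjusted p = 0.0317), with 5501, 6130 and 7889 in FL-HER2 and 4971, 5574 and 6254 in p95HER2. The Egln1 call ended under 7 alternatives, median-of-ratios factors, log2(CPM + 1) and voom among them, and without FL-HER2 replicate 4 or 6 or p95HER2 replicate 2, 3 or 4. The histone demethylase Kdm3a was higher by 0.25 (± 0.08, adjusted p = 0.0156), with 1942, 2338 and 3069 in FL-HER2 and 2650, 2760 and 3206 in p95HER2, though it was -0.06 with the number-length term.

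**Figure D3:**
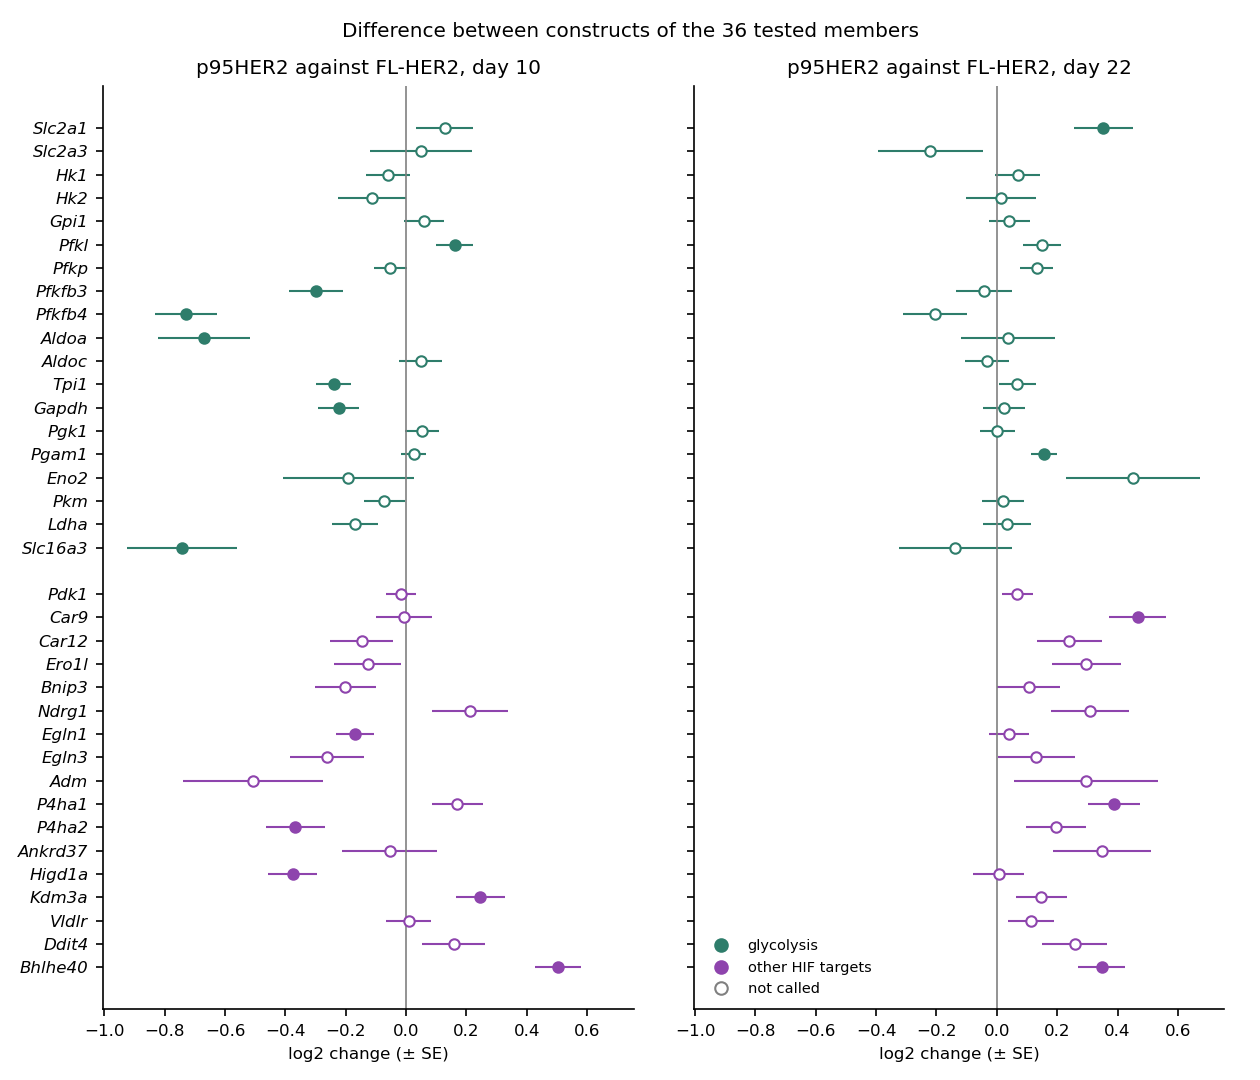
Log2 difference ± SE (x axis) of p95HER2 against FL-HER2 for each tested member (y axis) at day 10 (left) and day 22 (right), in the colours of the plot of changes with time. At day 10 most called points lie below 0, with Slc16a3, Pfkfb4 and Aldoa lowest, and at day 22 all 5 called points lie above 0.

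Muscle RNA differed between the same groups. All 25 skeletal muscle markers were called lower in p95HER2 at day 10, with a median log2 difference of -4.33, and of these Acta1 had medians of 113585 in FL-HER2 and 1680 in p95HER2. Also lower there were 12 of 14 macrophage markers (median -0.74), 10 of 14 fibroblast markers (-1.13), 11 of 15 endothelial markers (-0.53) and 5 of 8 adipocyte markers (-1.54), and the part of these cells in the members' differences was not tested. In FL-HER2 at day 10 the library with the lowest muscle share (replicate 10, 0.0502%) had the lowest Aldoa (42008) and Slc16a3 (596.3), and the library with the highest (replicate 4, 3.9%) had the highest Aldoa (162073) and Slc16a3 (3150). After adjustment for the muscle score, the mean log2 value of muscle genes in a library, 3 members were called lower at day 10 in place of 9. Over all genes 3217 were called in place of 5636, with 33.5% of them higher in place of 36.7%. Aldoa was then -0.28 (adjusted p = 0.151), Slc16a3 -0.23 (adjusted p = 0.308) and Tpi1 -0.15 (adjusted p = 0.0884), while Pfkfb4 was -0.55 (adjusted p = 3.78e-04), Higd1a -0.28 (adjusted p = 0.0271) and Bhlhe40 0.63 (adjusted p = 4.52e-07). The changes with time in FL-HER2 kept their calls under the same adjustment for Aldoa (-0.60, adjusted p = 2.65e-04) and Slc16a3 (-1.03, adjusted p = 3.00e-07). They also did for P4ha1 (-0.71), P4ha2 (-0.85), Car9 (-0.68) and Aldoc (0.74), while the calls of Hk2 and Car12 ended. Among muscle-limited libraries every member called lower at day 10 lost that call, Pfkfb4 and Higd1a included.

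**Figure D4:**
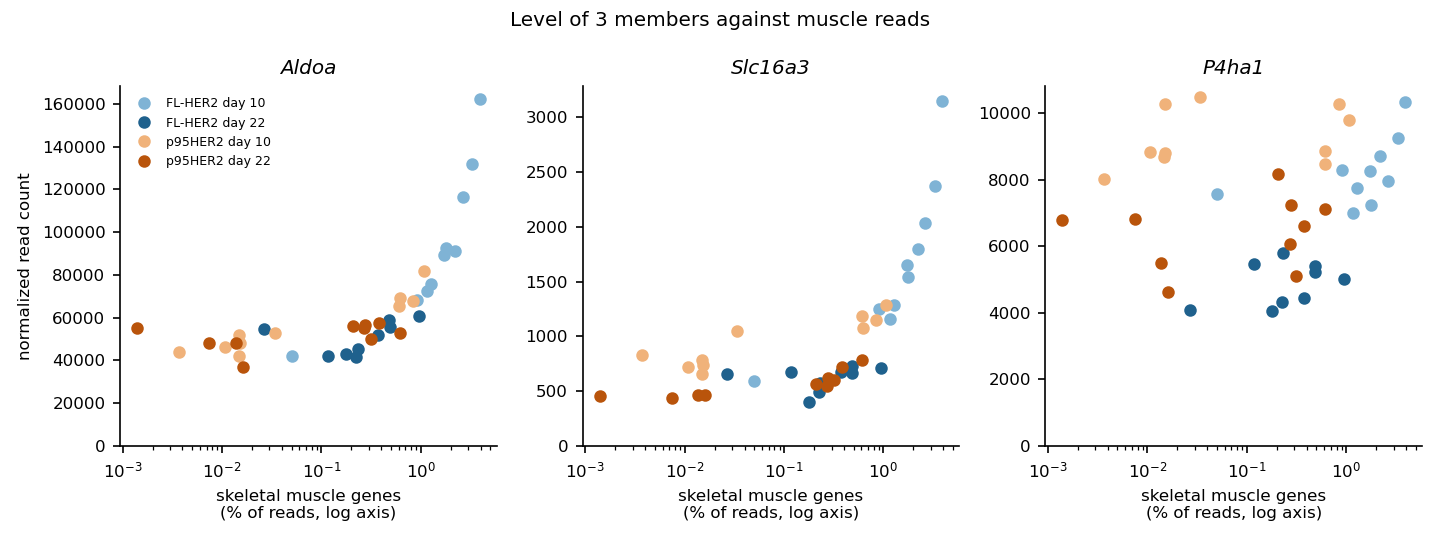
Normalized read count (y axis, from 0) of Aldoa, Slc16a3 and P4ha1 in each library against the share of reads in skeletal muscle genes (x axis, log scale), coloured by group. Aldoa and Slc16a3 are highest, at 162073 and 3150, in the FL-HER2 day 10 library with 3.9% muscle reads, while P4ha1 is at least 8028 in all 10 p95HER2 day 10 libraries, whose muscle shares run from 0.00368% to 1.07%.

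Isozymes and transporters typical of other tissues, several of them of muscle, were listed separately. Of 9 tested, 6 were lower in p95HER2 at day 10 and 1 was higher, with a median of -0.90, beside 26.1% lower and 15.2% higher among all genes. Those with the smallest p were Ldhb (-0.90 ± 0.11, adjusted p = 3.60e-08), the muscle phosphofructokinase Pfkm (-1.85 ± 0.34) and the insulin-responsive transporter Slc2a4 (-3.80 ± 0.72). With time in FL-HER2 5 of the 9 fell, beside 30.6% of all genes, with Slc16a1 (MCT1, -0.54 ± 0.07, adjusted p = 1.23e-07), Pfkm (-1.57) and Slc2a4 (-2.65) first. In p95HER2 Slc16a1 fell (-0.66 ± 0.07, adjusted p = 1.39e-09) and Ldhb rose (0.74 ± 0.11, adjusted p = 6.05e-07).

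At day 22 the constructs differed less, and every call was higher in p95HER2. Called higher were 2 glycolysis members and 3 other HIF targets, 5 in all, where 2.98% of all genes were. By limma 0 members were called lower, where 1.54% of all genes were, and 0 were lower at an unadjusted p under 0.05 or by voom on the reads. The estimate was above 0 for 14 of 19 glycolysis members and for 17 of 17 other HIF targets, beside 6495 of 13650 genes tested. The median log2 difference was 0.03 and 0.24, beside -0.01 for all genes. Tissue markers were one-sided too, with 15 of 15 endothelial (median 0.27) and 7 of 8 epithelial markers (0.17) above 0. Above 0 were 0 of 25 skeletal muscle (-1.74), 1 of 14 macrophage (-0.32) and 4 of 14 fibroblast markers (-0.16). The part of these cells in the members' differences at day 22 was not tested.

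Car9 had 1872, 2475 and 3183 in FL-HER2 and 2781, 3457 and 4567 in p95HER2 at day 22, and 2 p95HER2 libraries lay in the FL-HER2 range (0.47 ± 0.095, adjusted p = 0.00201). P4ha1 had 4061, 5009 and 5794 beside 4643, 6709 and 8189, with 3 libraries in that range (0.39 ± 0.09, adjusted p = 0.00515). Bhlhe40 had 4433, 4946 and 6299 beside 4992, 6384 and 8423, with 4 libraries in that range (0.35 ± 0.08, adjusted p = 0.00597). Bhlhe40 was the 1 member called higher in p95HER2 at both days. Slc2a1 had 4309, 6181 and 7784 beside 5506, 7874 and 9325 (0.35 ± 0.10, adjusted p = 0.0295), and the phosphoglycerate mutase Pgam1 had 5821, 6371 and 7075 beside 6592, 7326 and 7641 (0.16 ± 0.04, adjusted p = 0.0245).

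Without the skin-high libraries P4ha1 (0.35, adjusted p = 0.0251) and Bhlhe40 (0.40, adjusted p = 0.00902) stayed called, and Car9 (0.41, adjusted p = 0.0558), Slc2a1 (0.38, adjusted p = 0.084) and Pgam1 (0.16, adjusted p = 0.105) did not. The count of 5 ran from 3 to 7 when 1 library was left out, and it was 3 without FL-HER2 replicate 1, 3, 8 or 9 or p95HER2 replicate 4 or 10, where Slc2a1 and Pgam1 were lost. Slc2a1 was also lost without p95HER2 replicate 1, 7 or 9.

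The difference between constructs changed between the days in 6 members, all toward p95HER2. Called higher in this test of the change were 3 glycolysis members and 3 other HIF targets, where 13.5% of all genes were. Over all 36 tested members that share is near the background. Called lower by limma were 0, where 6.2% of all genes were, and also 0 at an unadjusted p under 0.05 and by voom. Of all genes called, 68.5% were higher, and 43.5% under quantile normalization. The changes were 0.52 ± 0.15 for Pfkfb4 (adjusted p = 0.0114), 0.71 ± 0.22 for Aldoa (adjusted p = 0.0198) and 0.31 ± 0.08 for Tpi1 (adjusted p = 0.00858). They were 0.47 ± 0.13 for Car9 (adjusted p = 0.011), 0.56 ± 0.14 for P4ha2 (adjusted p = 0.00428) and 0.38 ± 0.12 for Higd1a (adjusted p = 0.0195). In Pfkfb4, Aldoa, Tpi1, P4ha2 and Higd1a the constructs differed at day 10 and were not called apart at day 22, whereas in Car9 they differed at day 22 and by -0.01 ± 0.09 at day 10. At day 22 Tpi1 had medians of 27406 and 28900, and Higd1a of 2587 and 2434, in FL-HER2 and p95HER2. The class medians were 0.18 and 0.31, beside 0.04 for all genes. In the same test 12 of 15 endothelial markers (median 0.82), 9 of 14 fibroblast (1.06), 4 of 14 macrophage (0.40) and 4 of 8 adipocyte markers (1.26) were called higher, and 0 of each lower by limma. Their part in the members' result was not tested.

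This test also asks whether the fall with time differed between constructs. Of the 17 members called lower with time in FL-HER2 with no call in p95HER2, 5 passed it, namely Pfkfb4, Aldoa, Tpi1, Car9 and Higd1a, so that for the other 12 the fall is not shown to differ. After adjustment for muscle score Pfkfb4 (0.41), Tpi1 (0.26), Car9 (0.46) and P4ha2 (0.51) kept their calls, and Aldoa (0.47, adjusted p = 0.0637) and Higd1a (0.32, adjusted p = 0.055) did not. The count was 14 with library weights, 1 among muscle-limited libraries and 0 with the number-length term. Among muscle-limited libraries none of the members called in the main fit kept its call, so the 1 is another member.

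The classes were also compared library by library, as the mean log2 value of the tested members of each. For glycolysis the lowest, median and highest means were 12.35, 12.61 and 12.99 in FL-HER2 at day 10, 12.11, 12.34 and 12.50 at day 22, 12.35, 12.49 and 12.59 in p95HER2 at day 10 and 12.18, 12.37 and 12.48 at day 22. For the other HIF targets they were 11.67, 11.83 and 12.14, then 11.25, 11.41 and 11.77, then 11.42, 11.78 and 11.997, and 11.41, 11.75 and 11.88. FL-HER2 at day 22 had the lowest median in both classes.

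**Figure D5:**
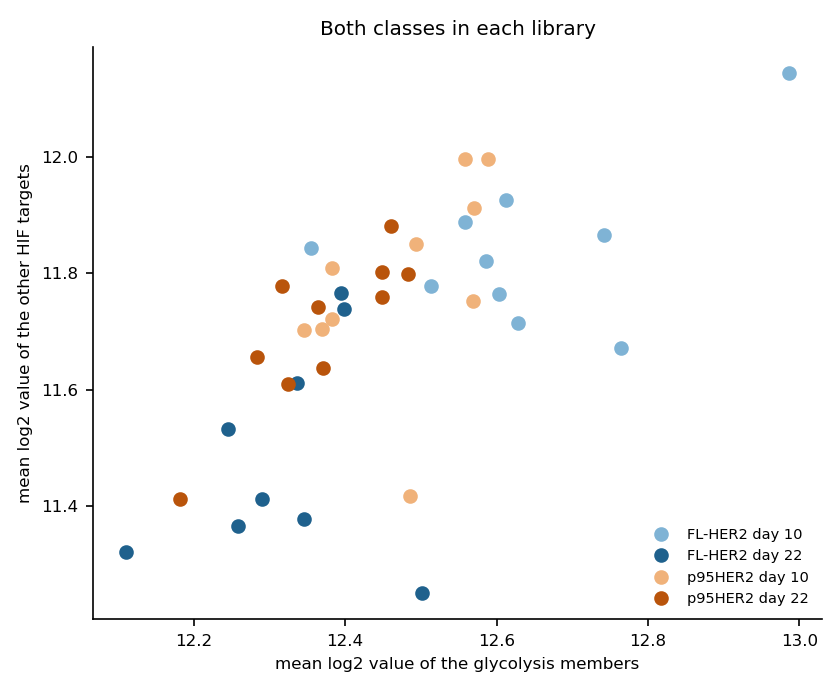
Mean log2 value of the tested other HIF targets (y axis) against that of the glycolysis members (x axis) in each of the 39 libraries (points), coloured by group. FL-HER2 day 10 replicate 4 lies at the upper right (12.99 and 12.14), and FL-HER2 day 22 replicate 7 and p95HER2 day 10 replicate 5 lie low in the other HIF targets (11.25 and 11.42) at middle values of glycolysis.

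A few libraries carried many of the extremes. FL-HER2 day 10 replicate 4, with 3.9% muscle reads, was the highest of its group for 12 glycolysis members and 12 other HIF targets. p95HER2 day 22 replicate 3 was the lowest for 11 and 12. In other libraries the classes parted: FL-HER2 day 22 replicate 7 was the highest for 8 glycolysis members and the lowest for 8 other HIF targets, and p95HER2 day 10 replicate 5 was the highest for 6 glycolysis members and the lowest for 11 other HIF targets. FL-HER2 day 22 replicate 2 was the highest for 10 other HIF targets and 2 glycolysis members.

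Further HIF targets outside the 37 genes gave a like count. Of 26 tested, 18 fell and 2 rose with time in FL-HER2 (median -0.29), and 8 fell and 1 rose in p95HER2 (median -0.12), beside 30.6% and 18.6% of all genes that fell. Fibroblast markers fell over the same interval, with medians of -2.14 and -0.96, and their part in this count was not tested. The smallest p-values in FL-HER2 were those of Tmem45a (-2.27 ± 0.19, adjusted p = 3.09e-12), the collagen-modifying oxidase Loxl2 (-2.05 ± 0.18, adjusted p = 5.70e-12) and the glycogen-targeting subunit Ppp1r3c (-1.46 ± 0.14, adjusted p = 2.20e-11). In p95HER2 Loxl2 (-1.38 ± 0.17) and Tmem45a (-1.22 ± 0.19) came first. At day 10, 11 were lower and 4 higher in p95HER2, beside 26.1% and 15.2% of all genes, with Ppp1r3c at -1.13 ± 0.13, the glycogen branching enzyme Gbe1 at -0.31 ± 0.07 and the lysyl oxidase Lox at -0.77 ± 0.17. At day 22, 2 were higher, among them the lysyl hydroxylase Plod2 (0.23 ± 0.06), and limma called 0 lower, beside 2.98% and 1.54% of all genes. The difference changed in 8, all upward, beside 13.5% of all genes, with Ppp1r3c (1.22 ± 0.19), Plod1 (0.36 ± 0.08) and Tmem45a (1.04 ± 0.27) first.

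Among the 14 tested genes of the HIF machinery, 4 fell and 3 rose with time in FL-HER2, near the 30.6% and 20.7% of all genes, and 2 fell in p95HER2, where 18.6% of all genes did. At day 10, 4 were lower and 4 higher in p95HER2, beside 26.1% and 15.2% of all genes. Epas1, which encodes HIF-2 alpha, had 2327, 2793 and 3189 in FL-HER2 at day 10 and 1629, 1854 and 2263 at day 22, without overlap (-0.55 ± 0.06, adjusted p = 3.96e-09). In p95HER2 it had 2709, 2928 and 3705 and then 2156, 2477 and 2716 (-0.29 ± 0.06, adjusted p = 2.55e-04). It was higher in p95HER2 at day 22 by 0.37 (± 0.06, adjusted p = 1.79e-04) and the difference changed by 0.26 ± 0.09 (adjusted p = 0.0366). Hif1an, the asparaginyl hydroxylase FIH, fell in FL-HER2 (-0.27 ± 0.06) and was lower in p95HER2 at day 10 (-0.29 ± 0.06). Cited2, a competitor of HIF for p300, fell with time in both constructs (-0.28 ± 0.07 and -0.26 ± 0.07) and was higher in p95HER2 at both days (0.30 ± 0.07 and 0.32 ± 0.07). Hif1a itself, looked up after its values were seen, rose in FL-HER2 by 0.20 (± 0.07, adjusted p = 0.0163) with an uncalled 0.15 ± 0.07 in p95HER2, and HIF-1 alpha is controlled mainly as a protein.

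A list of genes of pyruvate entry into the mitochondrion holds carriers, subunits of pyruvate dehydrogenase, the kinases that inhibit it and the phosphatases that reverse this. Of 12 genes 10 were lower and 1 higher in p95HER2 at day 10, beside 26.1% and 15.2% of all genes, with the inhibitory kinase Pdk2 (-1.27 ± 0.17, adjusted p = 3.09e-07), the dehydrogenase subunit Dld (-0.25 ± 0.03, adjusted p = 3.71e-07) and the pyruvate carrier Mpc1 (-0.62 ± 0.09, adjusted p = 9.52e-07) first. With time 5 fell and 1 rose in FL-HER2, beside 30.6% and 20.7% of all genes, among them Pdk2 (-1.07 ± 0.18). At day 22 limma called 0. Of 9 pentose phosphate genes 3 were lower at day 10 in p95HER2, near the 26.1% of all genes, among them Tigar (-0.74 ± 0.13, adjusted p = 1.78e-05). With time H6pd rose in both constructs (0.35 ± 0.07 and 0.50 ± 0.07) and G6pdx, the entry enzyme, fell in both (-0.13 ± 0.05 and -0.15 ± 0.05). Muscle reads moved with the same groups, and their part in these lists was not tested.

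Some members are counted with uncertainty because other genes hold the same sequence. Eno1, the main enolase, had 0 reads in 7 of 10 FL-HER2 and 8 of 10 p95HER2 libraries at day 10 and in all libraries at day 22, and at most 6 reads in any. In GENCODE M21, 72.2% of the 50-base windows of its longest coding transcript also occur in transcripts of other genes, most of them of Eno1b, which had group medians of 45.02 to 65.51 normalized read counts. That share was 82.5% for Gapdh, 68% for Pgk1, 41.5% for Pgam1, 34.4% for Pkm, 21.9% for Bnip3, 19.3% for Gpi1, 16.6% for Ldha and 13.5% for Aldoa. It was 0% for Aldoc, Slc16a3, Car9, Car12, P4ha1, P4ha2, Egln1, Vldlr, Pfkfb4 and Bhlhe40, and 0.61% for Pfkfb3.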

How the data were processed

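The submitters' processing notes name STAR 2.4.2a, mm10 and DESeq2. In the sources used here the counter and strand setting are not given. Values as deposited are log2 of a normalized read count plus 1 although the table is named CPM: undoing the log2 gave whole multiples of 1 step per library for 100% of values (tolerance 0.001 reads), from which reads and CPM were recovered. Genes reaching 1 CPM in 9 or more libraries were fitted in limma 3.58.1 (R 4.3.3) on the authors' log2 values, with 1 coefficient per group over 39 libraries, a trend and two-sided tests. In the shallowest library 1 CPM stands for 21.8 reads.

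The members, gene lists and tests were chosen with earlier results of these data known. Members called in a comparison are given in full for up to 5 per class by adjusted p, with every member called in the change between days, and listed genes for up to 3 per comparison. Of the listed genes, 1 is not reported here. Alternatives covered the scaling, pseudocount, filter, voom on recovered reads, library weights, tissue terms and each library left out. Muscle-limited libraries (0.1% to 1.3% of reads) and skin-high ones (mean log2 value of at least 6.5, set after seeing the values) served in these. The fit was tested on simulated data. Promoters came from RefSeq and positions from GENCODE M21, both on GRCm38, the assembly behind mm10.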

Additional observations from a re-analysis of the deposited data

Results flagged for a closer look

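A library stood far from the rest of its group in 11 of 144 groups of libraries, by Dixon's test at 95%, where chance gives about 1 in 20. FL-HER2 day 10 replicate 4 was the highest by such a gap for Bnip3 (5217 normalized read counts), Adm (259.4), Higd1a (4212) and Bhlhe40 (7853). p95HER2 day 10 replicate 5 was the highest for Hk1 (11109) and the lowest for Car9 (2629) and Adm (32.62). p95HER2 day 10 replicate 8 was the lowest for Slc2a3 (43.28), and FL-HER2 day 22 replicate 8 was the highest for Pfkfb4 (276). In p95HER2 at day 22 replicate 3 was the lowest for Aldoa (36958) and replicate 2 for Aldoc (13265).

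The difference between constructs changed between the days, by the test of that change, for Pfkfb4 (0.52), Aldoa (0.71), Tpi1 (0.31), Car9 (0.47), P4ha2 (0.56) and Higd1a (0.38). These are 6 of 36 tested members, near the 13.5% of all genes called higher.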

How the results depend on the processing

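Of 66 calls of members, 19 held under every alternative run, among them the changes with time of Aldoc, Pfkfb3, Slc16a3 and P4ha1 in both constructs, and Bhlhe40 between constructs at both days. Direction turned for Gapdh at day 10 (0.05) and Pkm with time in FL-HER2 (0.20) under quantile normalization, and for Kdm3a at day 10 (-0.06) with the number-length term. Muscle-limited libraries ended 38 calls. The number-length term ended 32 without a turn in direction, and that of Kdm3a besides. Both fits use few FL-HER2 day 10 libraries.

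Members called higher at day 10 were 3, and 7 with quantile normalization, 5 with voom and 1 each among muscle-limited libraries, with the number-length term and without skin-high libraries. Called lower there were 9, and 3 with the muscle covariate, 1 muscle-limited and 2 with the number-length term. Of those 9, Pfkfb4 and Higd1a kept the call with the muscle covariate, and none did among muscle-limited libraries. The glycolysis median at day 10 was 0.05 with quantile normalization. At day 22 the 5 called higher were 2 muscle-limited and 2 without skin-high libraries, and ran from 3 to 7 leaving out 1 library. With time in FL-HER2 the 4 called higher were 2 muscle-limited and 1 with the number-length term, and the 25 called lower were 12 and 10. The glycolysis median there was -0.06 with quantile normalization and -0.13 with the number-length term. In the change between days the 6 called higher were 14 with library weights, 1 muscle-limited (none of the 6) and 0 with the number-length term. They were 6 to 11 leaving out 1 library (most moved by p95HER2 day 10 replicate 1 and day 22 replicate 3), and 1 was called lower with quantile normalization.

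The share of calls that were higher over all genes was also 49.1% at day 10 with median-of-ratios factors and 51.5% on log2(CPM + 1), 62.5% with time in FL-HER2 under quantile normalization, and 56.6% in the change between days with median-of-ratios factors. The median of all genes in FL-HER2 moved from -0.03 to 0.08 on log2(CPM + 1). Over all genes, 5636 were called at day 10, 617 at day 22, 7011 over time in FL-HER2, 4799 over time in p95HER2 and 2682 in the change between days. Among muscle-limited libraries these were 641, 252, 3506, 3167 and 153. With the number-length term 1375, 2953 and 233 were called at day 10, with time in FL-HER2 and in the change. Muscle adjustment gave 3217 at day 10. Library weights gave 1418 at day 22 and 4577 in the change, and leaving out skin-high libraries 228 and 1659. No paired analysis was possible because the replicate numbers only name samples in the order of their records.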
